A study of Mus musculus with 2 samples.

Results

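The 7 genes examined here form the core of insulin-like growth factor (IGF) signalling: the ligands Igf1 and Igf2, the receptors Igf1r, Igf2r and Insr, and the adaptors Irs1 and Irs2. They were taken by name from a single-cell expression table of mouse prostate, in which all 7 were found among 19320 features. The table held 15742 cells from 2 dissociated tissues with 1 library each, a prostatic intraepithelial neoplasia (PIN) and a prostatic adenocarcinoma (PCa). Both tissues came from R26 mTmG/hAR:Osr1 Cre/+ mice of mixed C57BL/6 and 129S1/SvImJ background. According to the methods of the study, PIN tissue was taken at 6 months and PCa tissue at 12 months of age. In these mice the Cre recombinase, made where Osr1 is or was active, switches on a human androgen receptor transgene (hARtg) and replaces membrane Tomato with membrane green fluorescent protein (mGFP). Mice of both groups carried the same alleles before recombination, and no group without Cre or without the transgene was part of the table. The file gives no key to the features EGFP and ARQ, and they are read here as mGFP and hARtg by name alone.

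IGF1 and IGF2 are secreted peptides that resemble insulin. IGF1R, a receptor tyrosine kinase, binds both, while INSR binds insulin and, in one of its isoforms, IGF2. IGF2R carries no kinase and takes IGF2 and lysosomal enzymes out of the extracellular space. Activated IGF1R and INSR phosphorylate the docking proteins IRS1 and IRS2, which recruit phosphatidylinositol 3-kinase, and a parallel branch runs through Ras to MAP kinases. In the prostate the stroma is known as a source of IGF1 for the epithelium. The study compared basal cells with and without the transgene to see what it regulates there.

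Each cell name ends in 1 or 2, and cells are grouped by that ending as barcode set 1 or 2. No label ties an ending to a tissue, so no cell was assigned to PIN or PCa. Set 1 held 6332 cells (134850345 unique molecular identifiers, UMIs, which mark single captured RNA molecules; median 17235 per cell) and set 2 held 9410 cells (187280119 UMIs, median 14824.5), and 67 barcode sequences occurred in both sets. With 1 library per set there is no replicate check on any difference below, and no test was made. Levels are sums of a gene's UMIs within a class, scaled to 1000000 UMIs of that class (counts per 1000000, CPM). Their 95% intervals are exact Poisson for levels, exact Clopper-Pearson for shares and conditional binomial for ratios, and cover counting error only. Because the libraries capture transcript ends, values are compared within a gene and not between genes.

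Cells were assigned to classes from marker genes after doublets were removed. Luminal-like cells numbered 2608 in set 1 and 6990 in set 2, and basal-like cells 1553 and 220. Fibroblast-like cells numbered 133 and 222, endothelial-like cells 40 and 161, and macrophage-like cells 38 and 192. Set 1 held 769 cells like T or NK cells, with a median of 3597 UMIs and 2 of their markers among their 10 leading genes. The 16 cells of that gate in set 2 gave 1 Irs2 UMI (18.6 CPM, 0.47 to 104) and 8 Igf2r UMIs (149 CPM, 64.4 to 294). All 8 markers were seen in 25% or more of them. They are otherwise left out of the levels by class. Their median of 3219 UMIs was far below that of their set, and their 10 leading genes held none of their markers. The 10 leading genes of fibroblast-like cells of set 1 also held none of their markers, but these cells were deeper (median 7495 UMIs) and all 8 markers were seen in 25% or more of them. At least 5 of the 9 luminal markers, 6 of the 7 basal markers, 7 of the 8 fibroblast markers, 8 of the 8 endothelial markers and 6 of the 7 macrophage markers had a UMI in at least 25% of their class's cells in each set. No class reached the score limits for 874 cells of set 1 and 1353 cells of set 2.

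The results in epithelium turn on Igf1r, Irs1 and Irs2, so the 250 bases upstream of their transcript starts are shown (RefSeq, GRCm38.p6, 5′ to 3′ on the strand of the gene). Capitals mark GC boxes, GGGCGG or its reverse complement. The half-site of the androgen receptor, AGAACA or its reverse complement TGTTCT, was searched on both strands and matched in none of the 3 windows. Among 32851 windows of this length upstream of annotated starts, 16.1% held the half-site and 32.7% a GC box. A match, or its absence, only describes these letters.
Igf1r, chr7:67952007-67952256, plus strand: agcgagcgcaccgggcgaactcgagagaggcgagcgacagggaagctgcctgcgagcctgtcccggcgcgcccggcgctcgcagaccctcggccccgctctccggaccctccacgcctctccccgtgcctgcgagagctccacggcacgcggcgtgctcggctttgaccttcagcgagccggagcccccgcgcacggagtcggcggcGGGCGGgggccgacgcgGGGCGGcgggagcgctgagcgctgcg
Irs1, chr1:82291440-82291689, minus strand: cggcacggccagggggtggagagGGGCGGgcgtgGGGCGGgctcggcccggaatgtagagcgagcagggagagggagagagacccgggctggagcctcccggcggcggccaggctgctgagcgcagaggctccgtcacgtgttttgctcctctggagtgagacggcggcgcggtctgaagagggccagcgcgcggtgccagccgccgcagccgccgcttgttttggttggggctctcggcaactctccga
Irs2, chr8:11008930-11009179, minus strand: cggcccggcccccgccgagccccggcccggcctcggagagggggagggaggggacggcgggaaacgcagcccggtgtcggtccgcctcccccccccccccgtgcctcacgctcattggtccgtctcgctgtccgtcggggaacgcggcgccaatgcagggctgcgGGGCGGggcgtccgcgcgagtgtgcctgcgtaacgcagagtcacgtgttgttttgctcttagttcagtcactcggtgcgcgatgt
The GC content was 77.6% for Igf1r, 72.4% for Irs1 and 72.8% for Irs2. The windows held 2 GC boxes for Igf1r (43 and 26 bases before the start), 2 for Irs1 (227 and 216 bases) and 1 for Irs2 (85 bases).

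The first comparison asked which cells held ligand transcripts. Igf1 (chromosome 10, 87858265 to 87937047) encodes the main growth factor of the axis. It was concentrated in fibroblast-like cells of both sets and in macrophage-like cells of set 2. In fibroblast-like cells Igf1 stood at 632 CPM (95% interval 587 to 680, 733 UMIs) in set 1 and at 333 CPM (301 to 368, 392 UMIs) in set 2. In luminal-like cells it stood at 0.22 CPM in set 1 and 0.34 CPM in set 2. Basal-like cells gave 1.7 CPM in set 1, from 36 UMIs in 5 cells, of which 29 came from 3 cells that lay in the cluster led by Mgp and Cxcl14 with the fibroblast-like cells. Likewise 10 of the 18 luminal-like UMIs of set 1 came from 2 cells of that cluster. In set 2 basal-like cells gave 0 UMIs, which allows up to 1.6 CPM at 3 UMIs. Epithelial levels were thus below 1% of the fibroblast level in each set.

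An Igf1 UMI was found in 74.4% of fibroblast-like cells of set 1 (median 7495 UMIs per cell) and in 58.6% of those of set 2 (median 4508.5 UMIs). The same share was 0.192% of luminal-like cells in set 1 (median 28689.5 UMIs) and 0.529% in set 2 (median 18072 UMIs), although these cells were deeper. With every cell reduced to 3000 randomly drawn UMIs, fibroblast-like shares came to 52.4% for set 1 and 50% for set 2, leaving out 9 and 42 shallower cells. The transcript was unevenly spread. The highest fibroblast-like cell held 67 Igf1 UMIs in set 1 and 19 in set 2, and the 5 highest cells held 27.7% and 17.6% of the UMIs of their class.

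The second class with Igf1 differed between the sets. Macrophage-like cells of set 2 stood at 165 CPM (146 to 186), with 266 UMIs in 83 of 192 cells, or 43.2%. The 38 macrophage-like cells of set 1 gave 2 UMIs, or 5.0 CPM (0.60 to 18). The 2 intervals did not overlap, but set 1 was under the 50 cells set as the minimum for a ratio. Endothelial-like cells of set 2 stood at 30.2 CPM (22.7 to 39.3, 55 UMIs), while the 40 cells of set 1 gave 1 UMI. Few smooth muscle or mural-like cells were found. They gave 145 CPM (83.2 to 236) from 11 cells in set 1 and 61.2 CPM (37.9 to 93.6) from 45 cells in set 2.

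Of the 1000 Igf1 UMIs of set 1, fibroblast-like cells held 73.3% (70.4 to 76.0%) while making up 2.15% of the cells. Of the 989 of set 2 they held 39.6% (36.6 to 42.8%), macrophage-like cells 26.9% (24.2 to 29.8%), endothelial-like cells 5.56% and luminal-like cells 5.56%. Of the 55 luminal-like UMIs of set 2, 21 came from 15 cells that lay in the cluster led by Apod and Penk. A further 4 came from 14 cells in the cluster led by Cd74 and C1qa. Where classes were taken from named clusters in place of single cells, the fibroblast-like share of set 2 was 17.2%, since the cluster led by Apod and Penk stayed unnamed. Cells without a class held 19.0% in set 1 and 20.1% in set 2. In set 1 a cluster led by Mgp, Cxcl14, Bgn and Apod held 980 of the 1000 UMIs, gated cells included. The clusters with most Igf1 in set 2 were led by Apod and Penk (402 UMIs), Cd74 and C1qa (279 UMIs) and Igfbp4 and Bgn (170 UMIs).

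**Figure D1:**
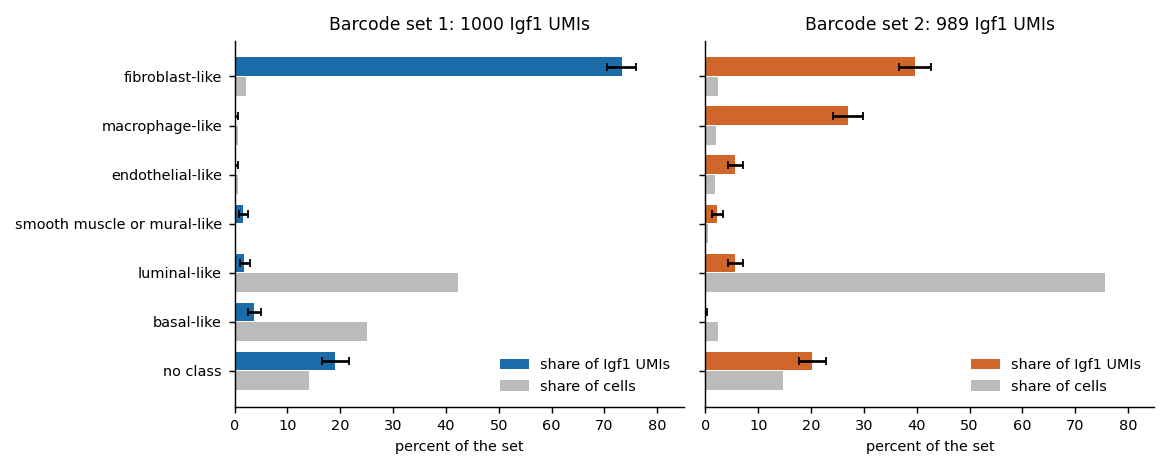
Share of all Igf1 UMIs (coloured bars, with exact 95% intervals) and share of all cells (grey bars) by cell class, in percent of each barcode set. Fibroblast-like cells hold 73.3% of the Igf1 UMIs in set 1 and 39.6% in set 2, and macrophage-like cells hold 26.9% in set 2.

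The log2 ratio of Igf1 in fibroblast-like cells, set 2 against set 1, was -0.92 (-1.11 to -0.75). The class was not made of like clusters. All 133 fibroblast-like cells of set 1 fell in the cluster led by Mgp. In set 2, 166 cells fell in the cluster led by Apod and Penk, at 281 CPM (245 to 320), and 52 cells in the cluster led by Igfbp4 and Bgn, at 503 CPM (429 to 587). The summed CPM of the 8 fibroblast markers was 15897 in set 2 and 13224 in set 1, with all 8 above 0 in both. Luminal markers in the same cells summed to 2594 CPM in set 2 and 1033 CPM in set 1. Smooth muscle or mural markers summed to 669 and 1688 CPM, with 7 of 8 above 0 in each set. The part of these differences in the Igf1 ratio was not tested.

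Igf2 (chromosome 7, 142650768 to 142666816), the fetal ligand that is imprinted in most tissues, was rare, with 16 UMIs in the gated and ungated cells of set 1 and 100 in set 2. In set 1, 8 of the 16 came from 1 fibroblast-like cell. In set 2, luminal-like cells, which held 87.4% of the UMIs of all genes, held 95 of the 100 Igf2 UMIs, in 30 of 6990 cells. The 5 highest of these cells held 56 UMIs, or 58.9%, and the highest held 18. Cells of the cluster led by Svs5 and Svs4, genes of seminal vesicle secretion, gave 63 UMIs from 13 cells, and those of the cluster led by Gja1 and Kcnmb2 gave 20 UMIs from 6 cells. The class level of 0.59 CPM (0.48 to 0.73) thus comes from few cells, some with several UMIs each. In set 1, luminal-like cells gave 5 UMIs from 5 cells.

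Receptor transcripts had another distribution. Igf1r (chromosome 7, 67952257 to 68233668) was present in epithelium of both sets. Basal-like cells stood at 90.9 CPM (86.9 to 95.1) in set 1 and 88.6 CPM (75.5 to 103) in set 2. Luminal-like cells stood at 64.3 CPM (62.6 to 66.1) in set 1 and 90.7 CPM (89.2 to 92.2) in set 2. In set 1 the basal-like level was above the luminal-like level by more than counting error, and in set 2 the intervals of both overlapped. Fibroblast-like cells gave 35.4 CPM (25.4 to 48) in set 1 and 64.6 CPM (50.9 to 80.8) in set 2, and endothelial-like cells 31.4 and 34.6 CPM. Of the luminal-like, basal-like, fibroblast-like, endothelial-like and macrophage-like cells, the last were lowest in each set, at 14.9 CPM (6 UMIs) in set 1 and 13.7 CPM (8.6 to 20.7) in set 2.

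Detection at matched depth was higher in basal-like than in luminal-like cells of set 1 by more than counting error. After thinning to 3000 UMIs, the share of set 1 cells with an Igf1r UMI was 21.0% (19.0 to 23.1%) for the basal-like class and 17.1% (15.6 to 18.6%) for the luminal-like class. In set 2 the shares of 24.4% (18.8 to 30.8%) and 21.6% (20.6 to 22.6%) overlapped. Macrophage-like cells of set 2 gave 4.28%. Without thinning the shares were 55.2% of basal-like (median 11084 UMIs) and 74.9% of luminal-like cells in set 1, an order that follows depth, and 7.29% of macrophage-like cells in set 2 (median 7667.5 UMIs).

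**Figure D2:**
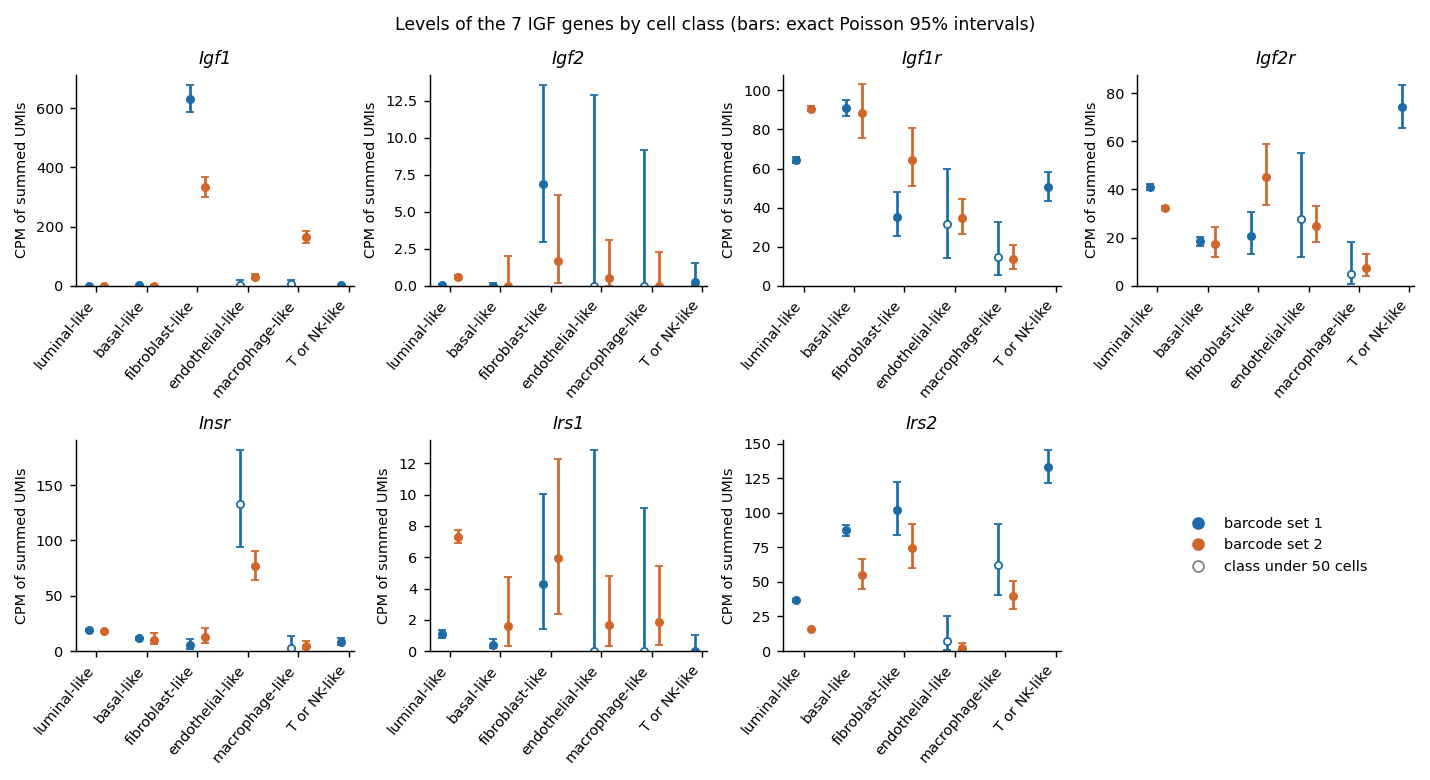
Levels of the 7 genes in CPM of summed UMIs (linear axis from 0, one scale per gene) for 6 cell classes, in barcode set 1 (blue) and set 2 (orange). Bars are exact Poisson 95% intervals, and open circles mark classes under 50 cells. Igf1 stands out in fibroblast-like cells of both sets, Insr in endothelial-like cells and Irs2 in T or NK-like cells of set 1.

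Insr (chromosome 8, 3150922 to 3279649), the insulin receptor, had its highest level in endothelial-like cells. Luminal-like cells held most of its UMIs, 72.8% in set 1 and 87.6% in set 2, where they held 63.8% and 87.4% of the UMIs of all genes. Endothelial-like cells held 1.73% and 4.29% of its UMIs, where they held 0.22% and 1.0% of those of all genes. Endothelial-like cells stood at 133 CPM (93.8 to 182, 38 UMIs in 40 cells) in set 1 and 76.9 CPM (64.7 to 90.7, 140 UMIs) in set 2. Luminal-like cells followed at 19.2 CPM (18.3 to 20.2) and 17.9 CPM (17.2 to 18.6). Basal-like cells gave 11.5 CPM (10.1 to 13.0) and 10.3 CPM (6.2 to 16), and the other classes of 30 or more cells in set 1 lay between 2.5 and 12.2 CPM. Endothelial-like cells were at the other end for the adaptor Irs2, with 7.0 CPM (2 UMIs) in set 1 and 2.2 CPM (4 UMIs) in set 2.

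Igf2r (chromosome 17, 12682406 to 12769706), the clearance receptor, was highest in T or NK-like cells of set 1 among the classes described there, at 74.2 CPM (65.6 to 83.6). Luminal-like cells stood at 41.0 CPM (39.6 to 42.4) in set 1 and 32.3 CPM (31.5 to 33.2) in set 2. Basal-like cells stood at 18.5 CPM (16.7 to 20.4) and 17.3 CPM (11.8 to 24.4), below luminal-like cells in both sets. In set 1, Igf1r and Igf2r thus ranked these epithelial classes in opposite ways. Fibroblast-like cells gave 20.7 CPM in set 1 and 45.0 CPM in set 2, with a log2 ratio of 1.12 (0.40 to 1.88) from 24 and 53 UMIs.

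Among the adaptors, Irs2 (chromosome 8, 10984681 to 11008929) was lowest in endothelial-like cells. T or NK-like cells of set 1 stood at 133 CPM (121 to 145), and fibroblast-like cells at 102 CPM (84.2 to 122) in set 1 and 74.8 CPM (60 to 92.1) in set 2. Basal-like cells gave 87.3 CPM (83.4 to 91.4) and 55.1 CPM (44.9 to 66.9), and luminal-like cells 36.6 CPM (35.4 to 38) and 15.6 CPM (15 to 16.3). The luminal-like level was the lowest of these 3 in both sets, while the fibroblast-like and basal-like intervals overlapped in both. Irs1 (chromosome 1, 82233105 to 82291439) was low throughout. Fibroblast-like cells gave 4.3 CPM (1.4 to 10.1, 5 UMIs) and 5.9 CPM (2.4 to 12.3, 7 UMIs), basal-like cells 0.38 and 1.6 CPM, and luminal-like cells 1.1 CPM (0.86 to 1.3) and 7.3 CPM (6.9 to 7.7).

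Clusters, made in each set with the 7 genes left out of the features, showed where a class level hid a smaller group. The highest Igf1r level of all 20 clusters of set 1 was 861 CPM (759 to 974), in a cluster of 74 cells (median 3818.5 UMIs) led by Ramp3, Icos, Calca and Gpr183. In this cluster 90.5% of the cells held an Igf1r UMI, 256 UMIs in all. The next cluster of set 1, led by Htra1, Lgals7 and EGFP, stood at 113 CPM (106 to 121). Irs2 was highest in the same cells, at 384 CPM (316 to 461). In the lymphocyte clusters of set 1 led by Tnfrsf9 and Gzma and by Trf and Rgs1, Irs2 stood at 190 and 152 CPM. The cluster led by Cd2 and Cd28 was lower. Its 298 T or NK-like cells, 38.8% of that class, stood at 44.7 CPM of Irs2 (33.3 to 58.8).

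The cells of this cluster held T cell receptor complex transcripts but neither co-receptor. Cd3e was seen in 83.8% of the cells, Il7r in 87.8%, Icos in 97.3% and Rora in 98.6%, while Cd8a was seen in 1 UMI and Cd4 in 0 UMIs. Other T or NK markers were Cd3d (63.5%), Cd3g (52.7%), Skap1 (24.3%), Ptprcap (21.6%), Cd2 (20.3%) and Lck (13.5%). The leukocyte gene Ptprc was seen in 59.5%, against 86 to 94.2% in the other lymphocyte clusters of set 1. Il17a, an effector cytokine of innate-like lymphocytes, was seen in 28.4% of the cells, with 57 UMIs. The 3 other lymphocyte clusters of set 1 held 2 Il17a UMIs at most, each in a larger number of cells. Nkg7, a granule gene of cytotoxic cells, was seen in 4.05% against 52.3 to 93.0% in those clusters. The genes that separate clusters were used to form them and are given as a description. By the marker rule the cluster stayed unnamed.

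The T or NK-like level of Igf1r in set 1 rested on these cells. Of the 769 gated cells, 30 lay in the cluster led by Ramp3 and Icos and gave 99 of the 184 Igf1r UMIs, at 749 CPM (609 to 912). The other 739 cells gave 24.2 CPM (19.4 to 30) in place of 50.6 CPM (43.5 to 58.4) for the whole class. For Irs2 the same cells gave 121 CPM (110 to 133) in place of 133 CPM. The other 44 cells of the cluster, without a class, stood at 952 CPM (809 to 1113) for Igf1r. A cluster of 39 cells in set 2, led by Ramp3, Ccl5, Emb and Rgs1, likewise had the highest Igf1r level of its set, at 255 CPM (177 to 357) from 34 UMIs, in 38.5% of the cells. It held 20 Il17a UMIs, in 10.3% of the cells, and 29 Cd8a UMIs, in 28.2%. The 16 cells of the T or NK gate in this cluster gave only 3 of its Igf1r UMIs, all in 1 cell. Its 1 basal-like cell gave 5 and its 1 luminal-like cell gave 1. The rest came from its 21 cells without a class. The second highest Igf1r level among the clusters of set 2 was 134 CPM (119 to 151). In each set the level of the cluster led by Ramp3 was above that of every epithelial cluster.

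**Figure D3:**
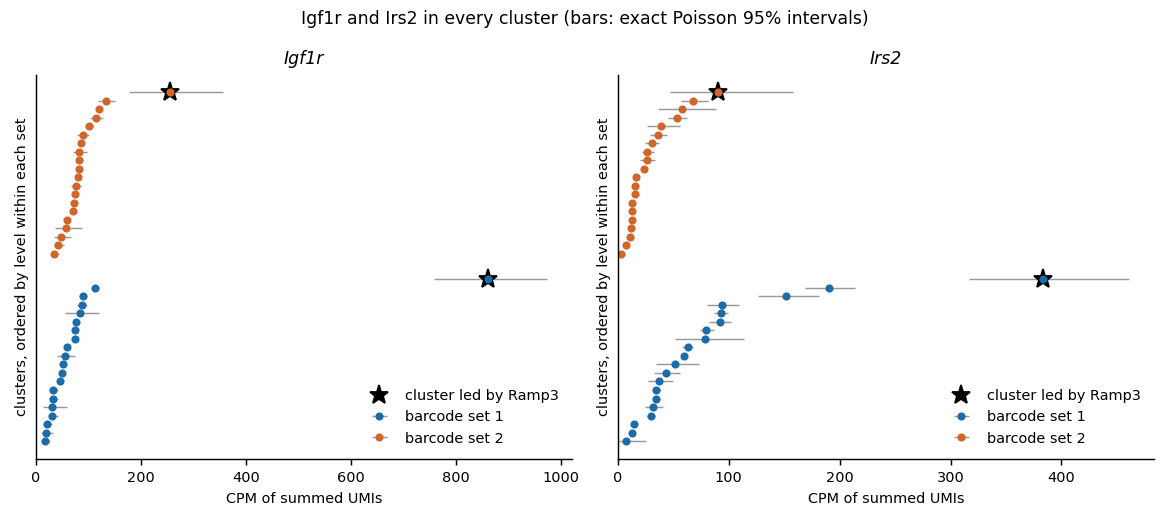
Igf1r and Irs2 levels in each of the 20 clusters of barcode set 1 (blue) and of set 2 (orange), in CPM of summed UMIs on a linear axis, ordered by level from bottom to top within a set. Grey bars are exact Poisson 95% intervals, and stars mark the clusters led by Ramp3, which reach 861 CPM of Igf1r in set 1 and 255 CPM in set 2.

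Epithelium was then divided by the reporter, which marks cells of the Osr1 lineage that recombined. The groups were cells with 0 EGFP UMIs, with above 0 to under 10, with 10 to under 50 and with 50 or more EGFP UMIs per 10000. EGFP UMIs were also found in cells outside the epithelium, and their source was not tested. In set 1, 14.7% of T or NK-like cells held an EGFP UMI (median 3597 UMIs per cell), and in set 2, 84.4% of macrophage-like cells did. A low EGFP level therefore does not by itself mark a recombined cell in either set. Levels of 10 or more were also seen outside the epithelium. At 10 to under 50 lay 1 T or NK-like and 2 macrophage-like cells of set 1, and 9 macrophage-like and 22 fibroblast-like cells of set 2. At 50 or more lay 2 T or NK-like cells of set 1, and 4 macrophage-like and 11 fibroblast-like cells of set 2. In set 2 only 17 luminal-like and 14 basal-like cells had no EGFP UMI.

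Igf1r lay higher with EGFP in basal-like cells of set 1. The level was 74.1 CPM (68.8 to 79.7; 824 cells) at 0 EGFP UMIs, 94.3 CPM (86.1 to 103; 350 cells) at above 0 to under 10, 112 CPM (98.9 to 127; 117 cells) at 10 to under 50 and 116 CPM (105 to 127; 262 cells) at 50 or more. The log2 ratio of 10 or more against 0 was 0.63 (0.47 to 0.78; 708 and 717 UMIs). Without the cells of the cluster led by Htra1, Lgals7 and EGFP, which made up 28.0% of basal-like cells of set 1 and stood at 113 CPM, the ratio was 0.71. With cells split after reduction to 3000 UMIs into those with any EGFP UMI and those with none, another cutoff, it was 0.40. After thinning to 3000 UMIs an Igf1r UMI was seen in 18.7% (16.1 to 21.6%), 20.1%, 17.9% and 30.5% (25 to 36.5%) of the cells of the 4 groups, so the order of the thinned shares was not that of the levels in the third group. Median depth was 9825.5, 11337.5, 16766 and 12451 UMIs.

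In basal-like cells of set 2 the level was 98.0 CPM at 10 or more EGFP UMIs per 10000 (101 cells) and 76.5 CPM below that (119 cells). The log2 ratio was 0.36, and its interval, -0.11 to 0.84 from 102 and 62 UMIs, included 0. In luminal-like cells Igf1r did not follow EGFP by more than counting error. Set 1 gave 62.8, 65.8, 64.7 and 64.7 CPM over the 4 groups, with a log2 ratio of 0.04 (-0.07 to 0.16) for 10 or more against 0. Set 2 gave 93.0, 87.3 and 90.8 CPM over the 3 groups with EGFP, with a log2 ratio of -0.04 (-0.18 to 0.09) for 10 or more against under 10. Whether basal-like and luminal-like cells differ in this respect was not tested, as it would need replicate samples.

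Insr in basal-like cells of set 1 was likewise higher with EGFP, from 9.7 and 9.7 CPM in the lower groups to 15.1 and 16 CPM in the upper groups, with a log2 ratio of 0.69 (0.26 to 1.11; 97 and 94 UMIs). Igf2r (log2 ratio 0.03, -0.32 to 0.37) and Irs2 (0.06, -0.10 to 0.22) did not differ by more than counting error there. In set 2 basal-like cells gave 67.2 CPM of Irs2 at 10 or more and 39.5 CPM below that, a log2 ratio of 0.77 (0.15 to 1.42; 70 and 32 UMIs). In luminal-like cells Igf2r lay lower with EGFP in both sets. In set 1 it went from 44.6 CPM at 0 to 33.5 CPM at 10 or more, a log2 ratio of -0.42 (-0.57 to -0.26), where the median over all 7596 features was -0.13. In set 2 it went from 45.4 CPM at under 10 to 31.9 CPM at 10 or more, a log2 ratio of -0.51 (-0.70 to -0.31), where the median over all 7794 features was -0.08. Irs2 in luminal-like cells went opposite ways in the sets, with -0.31 (-0.48 to -0.15) in set 1 and 0.57 (0.18 to 0.99; 53 UMIs on the lower side) in set 2.

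**Figure D4:**
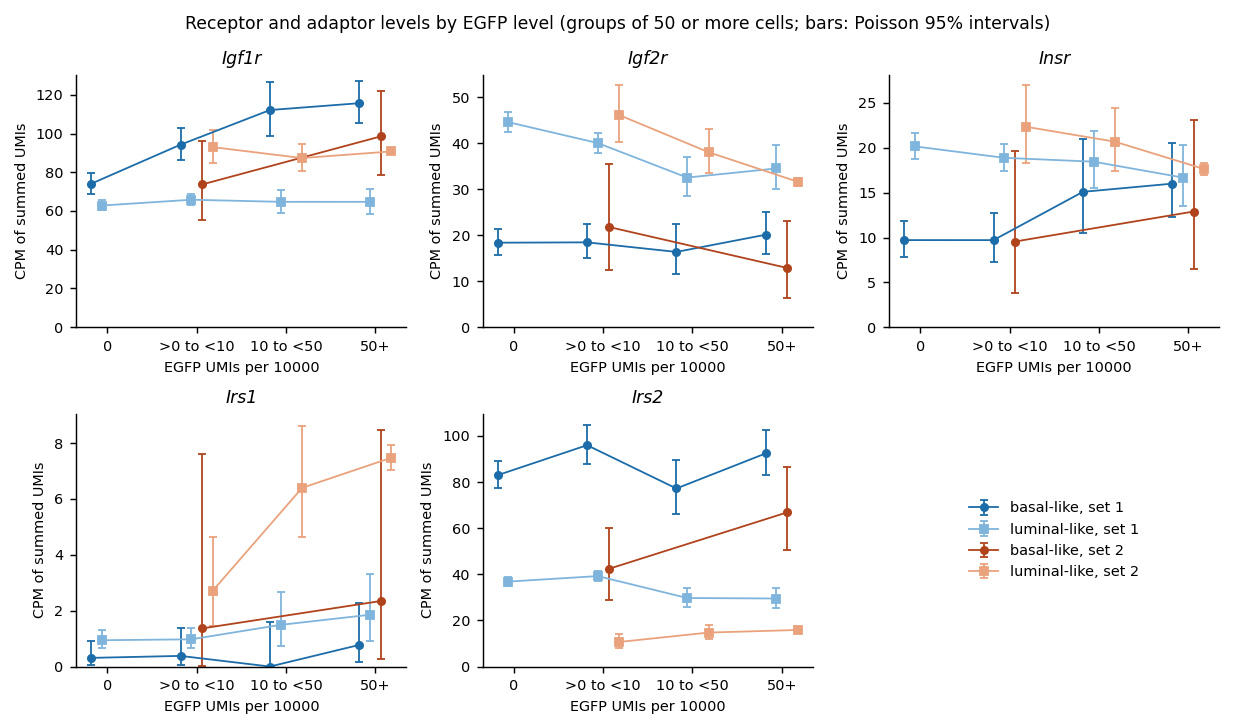
Levels of receptors and adaptors in CPM of summed UMIs (linear axes from 0) against the EGFP level of the cells, for basal-like and luminal-like cells of barcode sets 1 and 2 in groups of 50 or more cells. Bars are exact Poisson 95% intervals. Igf1r goes from 74.1 to 116 CPM in basal-like cells of set 1 and stays between 62.8 and 65.8 CPM in the luminal-like cells of that set.

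None of these differences was large. A gene was counted as past 2-fold when log2((CPM + 10)/(CPM + 10)) reached 1 in size, among features of at least 10 CPM on either side. In basal-like cells of set 1, EGFP of 10 or more against 0, 0 of the 4 members that passed the level filter were past 2-fold, while 0.937% of the 6833 features were higher and 1.1% lower. In luminal-like cells of set 1 it was 0 of 4, against 2.17% higher and 1.17% lower over 7596 features. Against under 10 in place of 0, it was 0 of 4 members in both classes of set 1, with 0.922% of features higher and 1.05% lower in basal-like and 1.92% higher and 0.992% lower in luminal-like cells. With EGFP of 10 or more against under 10, it was 0 of 4 in basal-like cells of set 2 (1.62% of features higher, 0.437% lower) and 0 of 4 in luminal-like cells of set 2 (6.99% higher, 7.81% lower). Igf1, Igf2 and Irs1 were under 10 CPM on both sides in each of these comparisons.

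Marker lists and RNA quality moved with EGFP too. In basal-like cells of set 1 the 7 basal markers summed to 10222 CPM at 10 or more EGFP and to 16931 CPM at 0, and the 9 luminal markers to 3348 and 5296 CPM, with all markers of both lists above 0 on each side. Dcn alone gave 2877 and 2534 CPM of the fibroblast list in these cells, and of its other 7 markers 5 were above 0 on either side. The antigen presentation gene H2-Aa stood at 768 CPM at 10 or more and 455 CPM at 0. The median mitochondrial share of UMIs was 3.5% and 3.33%. In luminal-like cells of set 1 the luminal markers summed to 15199 CPM at 10 or more and 27508 CPM at 0, and the median mitochondrial share was 4.59% and 3.59%. In luminal-like cells of set 2, at 10 or more against under 10, basal markers summed to 27.6 and 351 CPM and luminal markers to 19022 and 26109 CPM, with all of both lists above 0 on each side. The endothelial list, led by Emcn at 1.1 and 21.1 CPM, summed to 9.0 and 33.4 CPM, with 8 and 7 of its 8 markers above 0, and the median mitochondrial share was 5.25% and 4.57%. The part of these differences in the IGF genes was not tested.

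The sets were also compared within a class, though set and library cannot be told apart. The adaptors of luminal-like cells went opposite ways. Irs1 stood at 1.1 CPM (89 UMIs) in set 1 and 7.3 CPM (1165 UMIs) in set 2, a log2 ratio of 2.77 (2.46 to 3.1). Irs2 stood at 36.6 CPM (3051 UMIs) in set 1 and 15.6 CPM (2499 UMIs) in set 2, a log2 ratio of -1.23 (-1.30 to -1.15). The median log2 ratio over all 7899 features was -0.14. Igf1r had a ratio of 0.50 (0.45 to 0.54), Igf2r of -0.34 (-0.40 to -0.28) and Insr of -0.11 (-0.19 to -0.02).

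The Irs1 difference held in every luminal-like cluster. The 7 clusters of set 1 lay between 0.19 and 2.4 CPM and the 11 of set 2 between 3.6 and 11 CPM, so the ranges did not overlap. The highest was the cluster led by Gja1 and Kcnmb2 and the lowest the cluster led by Cxcl17 and Oit1. For Irs2 the ranges were 12.6 to 59.2 CPM in set 1 and 7.3 to 26.0 CPM in set 2 and overlapped. In set 1 the cluster led by Clu, Basp1, Cyp1a1 and Krt6a, with 1130 cells, was the highest at 59.2 CPM, and the clusters led by Tgm4 and by Msmb, secretory genes of the normal gland, were the lowest at 12.6 and 14.4 CPM. Igf1r ranged from 33.5 to 89.5 CPM in set 1 and from 60.2 to 134 CPM in set 2.

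**Figure D5:**
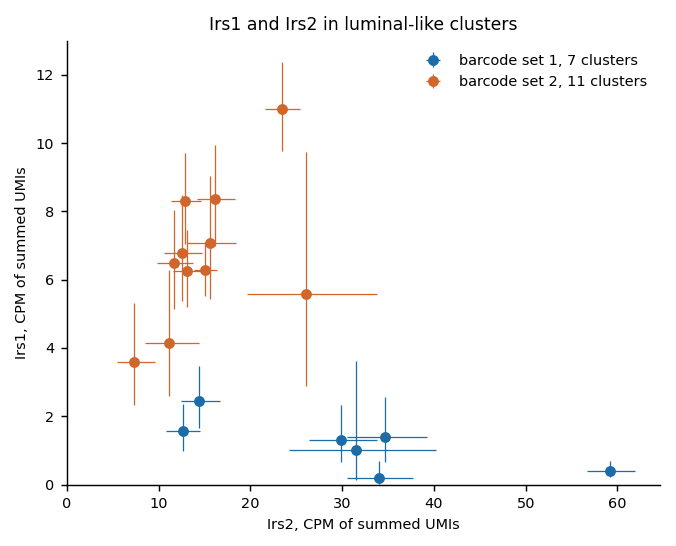
Irs1 against Irs2 level, both in CPM of summed UMIs on linear axes, in the luminal-like clusters of barcode set 1 (blue) and set 2 (orange), with exact Poisson 95% intervals. The 7 clusters of set 1 lie at or under 2.4 CPM of Irs1 and the 11 of set 2 at or above 3.6 CPM, while the Irs2 ranges overlap.

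Within the same EGFP groups the adaptors kept these directions, though EGFP itself was not equal between the sets. In luminal-like cells EGFP stood at 8569 CPM in set 1 and 10603 CPM in set 2 in the highest group. With above 0 to under 10 it stood at 85.4 and 225 CPM. With 50 or more EGFP UMIs per 10000, luminal-like cells stood at 1.9 CPM of Irs1 (0.93 to 3.3; 178 cells) in set 1 and 7.5 CPM (7.0 to 7.9; 6381 cells) in set 2, and at 29.5 and 15.9 CPM of Irs2. With above 0 to under 10 they stood at 0.98 CPM (0.67 to 1.4; 948 cells) and 2.7 CPM (1.4 to 4.6; 228 cells) of Irs1, and at 39.2 and 10.7 CPM of Irs2. Within set 2, Irs1 was lower in the group with least EGFP above 0 than at 50 or more, with a log2 ratio of 1.30 (0.57 to 2.14; 1150 and 15 UMIs) for 10 or more against under 10. A split after thinning to 3000 UMIs, into cells with any EGFP UMI and cells with none, gave a log2 ratio of -0.087. That is another cutoff, and 6800 of the 6920 thinned luminal-like cells of set 2 fell on the side with EGFP. In set 1 the ratio of 10 or more against 0 was 0.81 (-0.03 to 1.63).

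With the pseudocount of 10 CPM, 0 of the 4 members at 10 CPM or more in luminal-like cells were past 2-fold between the sets, Irs2 included, while 6.03% of the 7899 features were higher and 10.7% lower in set 2. In basal-like cells it was 0 of 4 (2.09% higher and 2.29% lower over 7067 features), with Irs2 at a log2 ratio of -0.66 (-0.97 to -0.38) and Igf1r at -0.04 (-0.28 to 0.19). In fibroblast-like cells it was 0 of 5 (3.46% higher and 3.28% lower over 8296 features). These counts rest on the pseudocount. Without it Irs2 in luminal-like cells, at -1.23, was past 2-fold. So were Igf2r, at 1.12 (0.40 to 1.88), and Insr, at 1.30 (-0.15 to 2.95, 15 and 6 UMIs), in fibroblast-like cells. The other members counted were not. In luminal-like cells the 7 basal markers summed to 38 CPM in set 2 and 723 CPM in set 1, the 7 proximal or urethral luminal markers to 86 and 930 CPM, with all of both lists above 0 in each set. H2-Aa stood at 2.7 CPM in set 2 and 719 CPM in set 1. The median mitochondrial share was 5.23% and 3.83%. Their part in the adaptor differences was not tested.

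The other genes of the pathway, 60 in 5 lists, were counted by the same rule. In basal-like cells of set 1, EGFP of 10 or more against 0, 41 were at 10 CPM or more, of which 1 was higher and 2 lower, with a median log2 ratio of -0.01 where all features gave -0.06. Over all features the shares were 0.937% higher and 1.1% lower. The higher gene was Htra1, a secreted protease that cleaves IGF binding proteins, at 325 against 131 CPM. The lower genes were the binding proteins Igfbp3, which carries IGFs in serum and tissue, at 3.1 against 27.7 CPM, and Igfbp5 at 13.4 against 60.6 CPM. None of the 18 tested genes from phosphatidylinositol 3-kinase to mTOR, nor of the 10 from Ras to MAPK, was past 2-fold. In basal-like cells of set 2, EGFP of 10 or more against under 10, 2 of 43 were higher and 1 lower (median 0.00, all features 0.06), where 1.62% and 0.437% of all features were. Igfbp2 stood at 365 against 39.5 CPM and Igfbp7 at 144 against 49.3 CPM, and Igfbp3 was lower, at 10.6 against 43.2 CPM. Htra1 (74.0 against 85.1 CPM) and Igfbp5 (10.6 against 11.1 CPM) were not past 2-fold there.

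In luminal-like cells of set 1, EGFP of 10 or more against 0, 1 of 42 was higher and 0 lower, with a median of -0.23 where all features gave -0.13, and 2.17% and 1.17% of all features were past 2-fold. This gene was Eif4ebp1, a repressor of translation that mTOR inactivates, at 189 against 84.2 CPM. Against under 10 it stood at 189 against 91.4 CPM and was not past 2-fold, nor was any other of the 43 genes at 10 CPM or more. In set 2, against under 10, Eif4ebp1 was lower, at 82.0 against 307 CPM. In that comparison Mapk13, a p38 kinase, stood at 338 against 67.9 CPM and Htra1 at 15.1 against 2.2 CPM, and in all 2 of 46 were higher and 1 lower (median -0.22, all features -0.08), where 6.99% and 7.81% of all features were. Between the sets, luminal-like cells had 1 gene of 43 higher in set 2, Mapk13, and 1 lower, Ptpn1, which encodes a phosphatase that acts on the insulin receptor, at 56.5 against 125 CPM, where 6.03% and 10.7% of all features were. Basal-like cells had 3 of 42 higher in set 2, Igfbp2, Grb10 and Eif4ebp1, and 2 lower, Htra1 and Igfbp5, where 2.09% and 2.29% of all features were. Fibroblast-like cells had 4 of 49 higher in set 2, Igfbp4, Stc1, Grb14 and Mapk13, and 1 lower, Igfbp5, where 3.46% and 3.28% of all features were. Igfbp4 stood at 3389 CPM in set 2 and 916 CPM in set 1, and Igfbp5 at 795 and 3626 CPM.

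The features most like a member were ranked by Pearson correlation of log2(CPM + 1) over the 10 class and set points with 50 or more cells, among 11334 features. These points share 2 libraries, and the values are a description. For Igf1 the nearest were Cd302 (r = 0.986), Ccl2 (0.982) and Speg (0.978). For Igf1r they were Rras2 (0.978), Megf9 (0.908) and Pdha1 (0.902), and for Igf2r Rfc1 (0.951), Wrnip1 (0.937) and Cpox (0.934). Insr was nearest to Bcr (0.975), Arid2 (0.942) and D930048N14Rik (0.933), and Irs2 to Ptger4 (0.95), Rassf5 (0.912) and Notch2 (0.902). Irs1, under 10 CPM in all 10 points, was nearest to Ptgds, Khdrbs3 and Osbpl1a. By rank correlation, none of the 3 genes was kept for Igf1, Insr, Irs1 and Irs2, and 1 for Igf2r.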

How the data were processed

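Dissociated prostate tissue of 2 samples (PIN and PCa, 1 library each) was profiled with 10x Genomics Chromium 3' v2 chemistry. The authors counted UMIs with Cell Ranger 3.1.0 (submitters' processing notes) against mm10 with mGFP and hARtg added, and filtered cells in Seurat. The deposited table holds natural log values, ln(1 + 10000 × UMIs / total UMIs of that cell). Whole UMIs were recovered for 100% of values above 0 (tolerance 0.001). The number of cells ending in 1 equals that given in the study for PIN, and the number ending in 2 is slightly below that for PCa, but no label ties an ending to a tissue. Scrublet (scanpy 1.11.5, expected rate 6%) was run on each set. Its automatic limit called 0 doublets, and a limit of 0.25, chosen with the scores in view, removed 155 and 175 cells. Each cell was given its best-scoring class over 78 markers of 11 classes, if the score was at least 0.25 and led by 0.1. Leiden clustering (2000 features, 30 components, 20 neighbours, resolution 0.8) was run per set. Sums of 0 were set to 3 UMIs in ratios, and ratios needed 50 cells on each side. Ratios were tested on simulated Poisson counts, which hold no spread between cells beyond counting error. Thinning was checked on cells of these data, and only for the number of UMIs kept per cell. No count model was fitted, since no group had replicates. Members, gene lists and tests were chosen with earlier results of these data known. Named genes were the members, the 3 features most like each, and pathway genes past 2-fold by EGFP. The features most like Igf2 are not reported here. Pathway genes past 2-fold between the sets, lymphocyte genes of the cluster led by Ramp3 and Icos, and leading genes of clusters were chosen after their values were seen.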

Additional observations from a re-analysis of the deposited data

How the results depend on the processing

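No paired analysis was possible because PIN and PCa came as 1 library apiece. For the same reason no replicate could be left out. Over 578 values recomputed under other settings, 478 stayed within the counting interval of the reported value or, for numbers of features, within 1.5 times of it, 99 moved and 1 reversed. The reversed value was the Irs1 log2 ratio by EGFP in luminal-like cells of set 2, at -0.087 with the split after thinning. This split sets cells with any EGFP UMI against cells with none. That split also moved the Igf1r ratio in basal-like cells of set 1 to 0.40, with its sign kept. Igf1 in fibroblast-like cells of set 1 moved to 703 CPM with a gap of 0.2, 704 CPM with every cell weighing the same and 708 CPM without genes over 1%. In set 2 it moved to 468 CPM with clusters, 389 CPM with a gap of 0.2 and 374 CPM without genes over 1%. The fibroblast-like share of Igf1 UMIs moved to 61.2% (gap of 0.2) and 69.8% (doublets kept) in set 1, and to 17.2% (clusters) and 35.3% (gap of 0.2) in set 2, where the cluster led by Apod and Penk stayed unnamed. In set 1 no cluster was named fibroblast-like, so that alternative gave no value. The causes of the other moves were not tested.

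A pseudocount of 1 CPM in place of 10 gave more features past 2-fold in all 9 comparisons. These counts cover all features, and no count of members is given at 1 CPM. Higher and lower features went from 64 and 75 to 143 and 167 in basal-like cells of set 1 (EGFP of 10 or more against 0), and from 63 and 72 to 119 and 160 against under 10. In basal-like cells of set 2 they went from 115 and 31 to 459 and 170. In luminal-like cells of set 1 they went from 165 and 89 to 284 and 223 against 0, and from 145 and 75 to 242 and 181 against under 10. In luminal-like cells of set 2 they went from 545 and 609 to 838 and 1089. Between the sets they went from 476 and 843 to 744 and 1339 (luminal-like), from 148 and 162 to 293 and 341 (basal-like) and from 287 and 272 to 675 and 533 (fibroblast-like).

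Some alternatives were chosen after the data were seen: EGFP of 10 or more against under 10, leaving out the clusters led by Htra1 and EGFP or by Ramp3 and Icos, and leaving out the 67 barcodes found in both sets, which kept all 91 recomputed values within their intervals. Classes of 11 to 40 cells limit the levels of smooth muscle or mural-like, endothelial-like and macrophage-like cells in set 1, and levels under 10 CPM rest on few UMIs.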
